A study of Mus musculus with 6 samples.

Results

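Nonmuscle myosin and its regulators are described here through 10 genes, given as a list of names: the heavy chains *Myh9*, *Myh10* and *Myh14*, the light chains *Myl6*, *Myl9* and *Myl12b*, the kinases *Mylk*, *Rock1* and *Rock2*, and the phosphatase subunit *Ppp1r12a*. Each was found by its symbol in the authors' table of 24402 loci, where the 10 genes occupy 10 loci, each averaging 1 FPKM or more over the genotypes (a fragment count scaled to the length of the transcript and the size of the library). *Myl12b* shares its locus with *Myl12a*, so only their joint value is known. RNA came from whole C57BL/6 mouse lungs at 12.5 *dpc* (days post coitus), from 3 wild-type samples (control) and 3 samples of the genotype Yap-flox/flox; Shh-Cre/+ (*Yap* mutant, called mutants hereafter). Cre made from the *Shh* locus acts in the lung epithelium, so mesenchyme, vessels and smooth muscle of the mutants keep *Yap*. The paper states that this Cre allele contributed to lower *Shh* levels in mutants. Controls are labelled wild type, so loss of *Yap* and presence of the Cre allele cannot be told apart in any ratio below. The labels do not say whether a sample is 1 embryo or a pool of several. The authors deposited 1 value per genotype, so there is no spread between libraries, no test and no SD, and the depth of each library is unknown. Every difference below is a ratio of those values.

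Nonmuscle myosin II is a motor built of a pair of heavy chains, a pair of regulatory light chains and a pair of essential light chains, and it pulls on actin filaments to tense the cell cortex. Phosphorylation of the regulatory light chain switches the motor on. Myosin light chain kinase and the kinases ROCK1 and ROCK2 add the phosphate, and a phosphatase whose targeting subunit is encoded by *Ppp1r12a* removes it. ROCK also inhibits that phosphatase. In branching epithelia this contractility shapes the cell apex. Transcript levels say nothing of phosphorylation, which was not measured in these files.

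Of the 10 member loci, 6 had the lower value in mutants and 4 in controls. Their median log2 ratio of mutant to control was -0.13, beside -0.01 over the 12701 loci that averaged 1 FPKM or more and had neither value at 0, hereafter the compared loci. Of the compared loci, 51.8% had the lower value in mutants and 48.2% in controls. Differences were counted past a bound of 0.32 on the log2 scale, which is 25% higher or 20% lower. Lower by at least that bound were 3 members, *Myh14*, *Mylk* and *Myl6*, where 6.92% of the compared loci were. Higher by at least the bound was 1 member, *Myl9*, where 9.92% of the compared loci were. With a 1.5-fold change required, *Myh14* was the 1 member past it and no member was past it upward, beside 3.42% of loci lower and 4.54% higher. The remaining 6 members, namely *Myh9*, *Myh10*, *Myl12b*, *Rock1*, *Rock2* and *Ppp1r12a*, lay within the bound. Without *Myl6*, whose value is irregular in its digits, 2 members were lower by at least the bound and the median was -0.09. In bulk lungs, fewer cells of a type and less RNA per cell cannot be told apart.

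**Figure D1:**
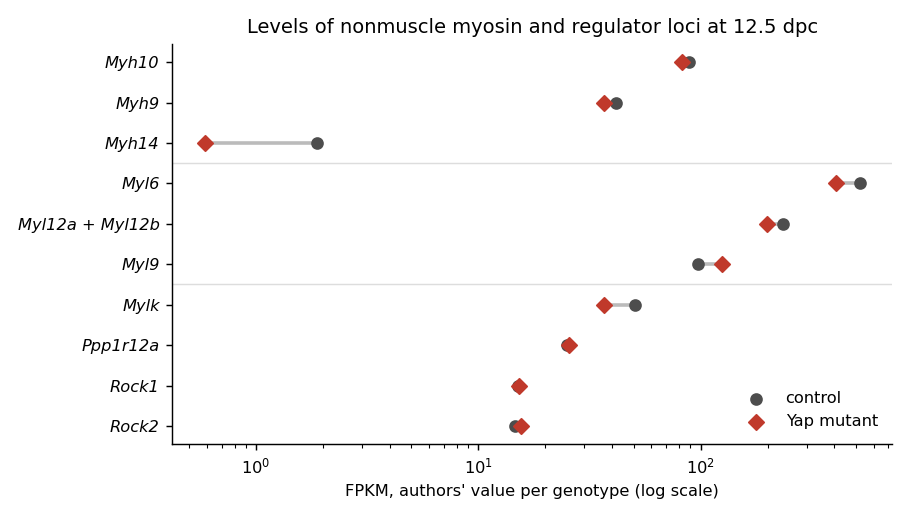
Levels of the 10 member loci, with the FPKM that the authors give for each genotype on a log axis (circles, control; diamonds, *Yap* mutant); horizontal lines part heavy chains, light chains and regulators. *Myh14* is the lowest of all in both genotypes and the most separated, and *Myl6* is the highest. Within each of *Rock1*, *Rock2* and *Ppp1r12a*, the control and mutant symbols lie nearly on top of each other.

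**Figure D2:**
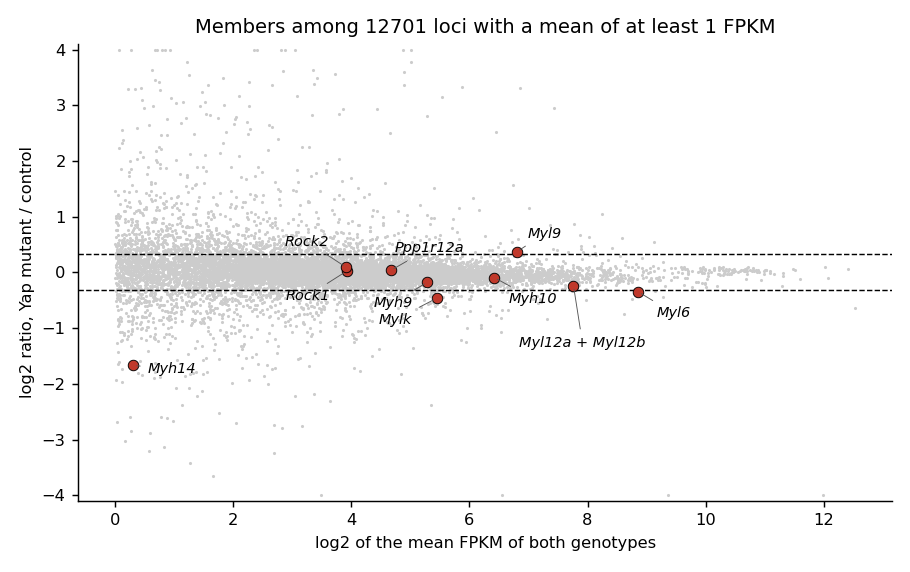
Log2 ratio of *Yap* mutant to control against the log2 of the mean FPKM, with the members in red, all 12701 compared loci in grey and dashed lines at the bound of 0.32 in each direction; 18 loci beyond 4 on the log2 scale are drawn at the edge. The spread of the grey points narrows with level, and *Mylk*, *Myl6*, *Myl9* and *Myh14* lie outside the dashed lines.

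The heavy chains carry the motor domain, and each gives its name to an isoform of the motor: *Myh9* to myosin IIA, *Myh10* to IIB and *Myh14* to IIC. *Myh10* had the highest level of the 3, at 88.3 FPKM in controls and 82.8 FPKM in mutants (log2 ratio -0.09). *Myh9* had 41.4 FPKM in controls and 36.7 FPKM in mutants (log2 ratio -0.17). Both were lower in the mutants, by less than the bound. Among all compared loci, 56.8% differed at least as much as *Myh10* in either direction and 33.3% at least as much as *Myh9*. *Myh14* had 1.87 FPKM in controls and 0.589 FPKM in mutants, which is 3.18-fold lower and a log2 ratio of -1.67. Only 0.449% of all compared loci were at least as low, but values near its level spread widely. Of 1114 loci with a mean within 1.5-fold of its mean, 5.48% differed at least as much in either direction. Adding 1 FPKM to both values, which damps ratios of low genes, gave a log2 ratio of -0.86, and adding 0.1 FPKM gave -1.52. *Myh14* is known for expression in epithelia. Epithelial marker genes were also lower here, 12 of 19 by at least the bound with a median of -0.59, and their part in the *Myh14* value was not tested.

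Because FPKM is scaled to transcript length, levels of different genes can be set side by side. The heavy chains summed to 131.5 FPKM in controls and 120.1 FPKM in mutants, a log2 ratio of -0.13. *Myh10* made up 67.1% of that sum in controls and 69.0% in mutants. *Myh9* made up 31.5% and 30.6%. *Myh14* made up 1.42% in controls and 0.490% in mutants. The steep ratio of *Myh14* therefore concerned a small part of the heavy chain transcripts of the whole lung.

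*Myh9* (chromosome 15, 77760589 to 77842115), *Myh10* (chromosome 11, 68691915 to 68816624) and *Myh14* (chromosome 7, 44605803 to 44670843) lie on different chromosomes of mm10, the build named in the submitters' processing notes and the same as GRCm38. In GENCODE release M21 their coding transcripts have up to 41, 43 and 42 exons, respectively. The *Myh14* locus has the same ends as the annotated gene, and 2 gene models on the opposite strand overlap it. The libraries were made with a strand-specific kit, but the sources used here do not say whether the counting used strand.

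The regulatory light chains carry the threonine and serine that the kinases phosphorylate. Mouse has 3 such genes outside striated muscle, and their coding sequences around that pair of codons are shown because they carry the site on which the pathway converges and because their likeness bears on how reads are assigned. Bases 34 to 78 of each coding sequence, from GENCODE release M21, are given 5′ to 3′ with the codons 19 and 20 in capitals.
Myl12a: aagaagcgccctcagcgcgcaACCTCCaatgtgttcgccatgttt
Myl12b: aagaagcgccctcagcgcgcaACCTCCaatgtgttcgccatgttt
Myl9: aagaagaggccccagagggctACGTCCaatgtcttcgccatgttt
The stretches of *Myl12a* and *Myl12b* are identical, and over their 516 coding bases the 2 genes match at 498 (96.5%), with a longest identical run of 102 bases and 4 differing residues. *Myl9* matches *Myl12b* at 446 bases (86.4%) and *Myl12a* at 442 (85.7%), with no identical run longer than 35 bases to either.

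*Myl12a* and *Myl12b* lie side by side on the same strand of chromosome 17, and the authors' table joins them in a locus from 70973963 to 71002594. Their joint value was 235.0 FPKM in controls and 199.0 FPKM in mutants (log2 ratio -0.24, 1.18-fold lower). Of all compared loci, 9.96% were at least as low. How much of the joint value belongs to either gene cannot be told from the table. The paper lists *Myl12b* among genes that were lower in mutants by RNA-Seq and qPCR. *Myl9*, on chromosome 2 from 156775464 to 156781657 with 4 exons in its coding transcript, had the higher value in mutants. It had 97.2 FPKM in controls and 125.3 FPKM in mutants, 1.29-fold higher (log2 ratio 0.37). Of all compared loci, 8.45% were at least as high, and of 665 loci near its level, 4.51% differed at least as much in either direction.

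The summed regulatory light chain level was 332.3 FPKM in controls and 324.4 FPKM in mutants, a log2 ratio of -0.03. Within that sum the share of *Myl9* was 29.3% in controls and 38.6% in mutants, which is 9.38 percentage points higher, with the rest taken by the *Myl12a* and *Myl12b* locus. *Myl9* was at a ratio of 0.414 to that locus in controls and 0.630 in mutants. With 1 value per genotype, the error of these shares is unknown.

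**Figure D3:**
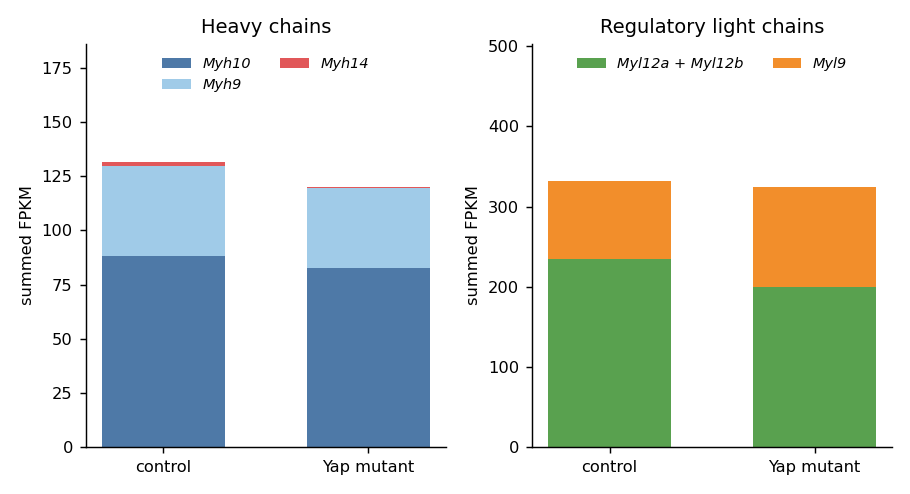
Summed FPKM of the heavy chain genes (left) and of the regulatory light chain loci (right) in control and *Yap* mutant lungs, stacked by locus from 0. Heavy chains are mostly *Myh10* in both genotypes, with *Myh14* barely visible, and *Myl9* takes 29.3% of the regulatory light chain bar in controls and 38.6% in mutants.

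*Myl6* encodes the essential light chain, which stiffens the lever arm of the motor and is not phosphorylated by these kinases. It was the highest member, at 519.7 FPKM in controls and 408.2 FPKM in mutants, and ranked 150 by mean level among all compared loci. This is 1.27-fold lower (log2 ratio -0.35), a size that 6.42% of compared loci reached or passed downward. After both columns were rescaled to the same total, its log2 ratio was -0.30 and it no longer reached the bound. The mutant value of *Myl6* is irregular in form. It is written with 10 significant digits, whereas the table otherwise gives at most 6, apart from the mutant values of 5 further loci, *Lpar3*, *Myl3*, *Actc1*, *Acta1* and *Myl2*. All of those except *Lpar3* encode muscle myosin light chains or muscle actins. A second table deposited by the authors holds the same *Myl6* values. The reason for the digits was not tested, and the *Myl6* ratio should be read with that limit. *Myl6b*, the other essential light chain gene of the list, had 3.09 FPKM in controls and 3.04 FPKM in mutants. *Myl6* thus made up 99.4% of the summed essential light chain level in controls and 99.3% in mutants. *Myl6* lies on chromosome 10 from 128490840 to 128493883.

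Levels of the chain classes did not match the equal numbers in the motor. Regulatory light chain transcripts were at a ratio of 2.53 to heavy chain transcripts in controls and 2.70 in mutants. For essential light chains this ratio was 3.97 in controls and 3.42 in mutants, the latter resting on the irregular *Myl6* value. The heavy chain sum leaves out the smooth muscle gene *Myh11*, which had 16.8 FPKM in controls and 3.73 FPKM in mutants.

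Among the 4 regulators that are members, *Mylk* differed most. It encodes myosin light chain kinase, which calcium and calmodulin activate, and had 50.5 FPKM in controls and 36.6 FPKM in mutants, 1.38-fold lower (log2 ratio -0.46). Of all compared loci 4.66% were at least as low, and of 1899 loci near its level 4.0% differed at least as much in either direction. The locus lies on chromosome 16 from 34784950 to 35002434. GENCODE gives it 2 coding transcripts, with coding lengths of 5850 and 477 bases. The short one lies at the 3′ end and corresponds to telokin, a smooth muscle protein without kinase activity, so the locus value does not separate the kinase from telokin.

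*Rock1* and *Rock2*, the kinases that RhoA activates, were present at nearly equal levels. *Rock1* (chromosome 18, 10064401 to 10182181) had 15.0 FPKM in controls and 15.2 FPKM in mutants, a log2 ratio of 0.02. *Rock2* (chromosome 12, 16894800 to 16988274) had 14.6 FPKM in controls and 15.5 FPKM in mutants, a log2 ratio of 0.09. *Ppp1r12a* (chromosome 10, 108161235 to 108279922) had 25.1 FPKM in controls and 25.7 FPKM in mutants, a log2 ratio of 0.03. Of the compared loci, 88.4% differed at least as much as *Rock1*, 56.8% as *Rock2* and 82.7% as *Ppp1r12a*. Without replicates, this does not show that they were unchanged. The level of *Mylk* was at a ratio of 2.01 to that of *Ppp1r12a* in controls and 1.43 in mutants, and at a ratio of 3.36 and 2.40 to that of *Rock1*.

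*Mylk* and *Myl9* are also genes of smooth muscle, which wraps the airways at this stage. Of 8 smooth muscle markers compared, 7 were lower by at least the bound in mutants, and their median log2 ratio was -0.77. *Acta2* had 125.2 and 59.9 FPKM in controls and mutants, and *Tagln* had 40.9 and 19.6 FPKM. *Actg2* had 68.0 FPKM in controls and 13.1 FPKM in mutants. *Myh11*, the smooth muscle heavy chain and closest relative of the nonmuscle heavy chains, had 16.8 FPKM in controls and 3.73 FPKM in mutants (log2 ratio -2.18). The exception was *Des*, with 17.6 and 37.7 FPKM. *Mylk* was thus lower alongside 7 of these 8 markers, while *Myl9* was higher. The summed level of the 9 listed markers was 300.1 FPKM in controls and 164.8 FPKM in mutants, and none was at 0. Their part in the member values was not tested.

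Heart muscle genes differed far more. All 10 cardiac markers compared were at least 1.5-fold higher in mutants, and their median log2 ratio was 3.04. The summed level of the 11 listed was 76.7 FPKM in controls and 468.8 FPKM in mutants, with none at 0. Of the 7 muscle myosin chain loci compared, *Myh6*, *Myh7*, *Myl1*, *Myl4* and *Myl7* were higher, and *Myh11* and *Mylpf* were lower. *Myl7*, an atrial regulatory light chain, had 39.3 FPKM in controls and 305.9 FPKM in mutants. For *Myl4* these values were 21.3 and 210.3 FPKM, and for *Myh6* 4.39 and 60.2 FPKM. In the table of all loci, the mutant level of *Myl7* was therefore close to that of all nonmuscle regulatory light chain loci together. The second table gives other mutant values for some of these loci. They are 87.8 FPKM for *Myl7*, 52.6 FPKM for *Myl4*, 6.09 FPKM for *Myl1* in place of 24.4 FPKM, and 2.05 FPKM for *Mylpf* in place of 2.89 FPKM. The part of heart muscle in the *Myl9* value was not tested.

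**Figure D4:**
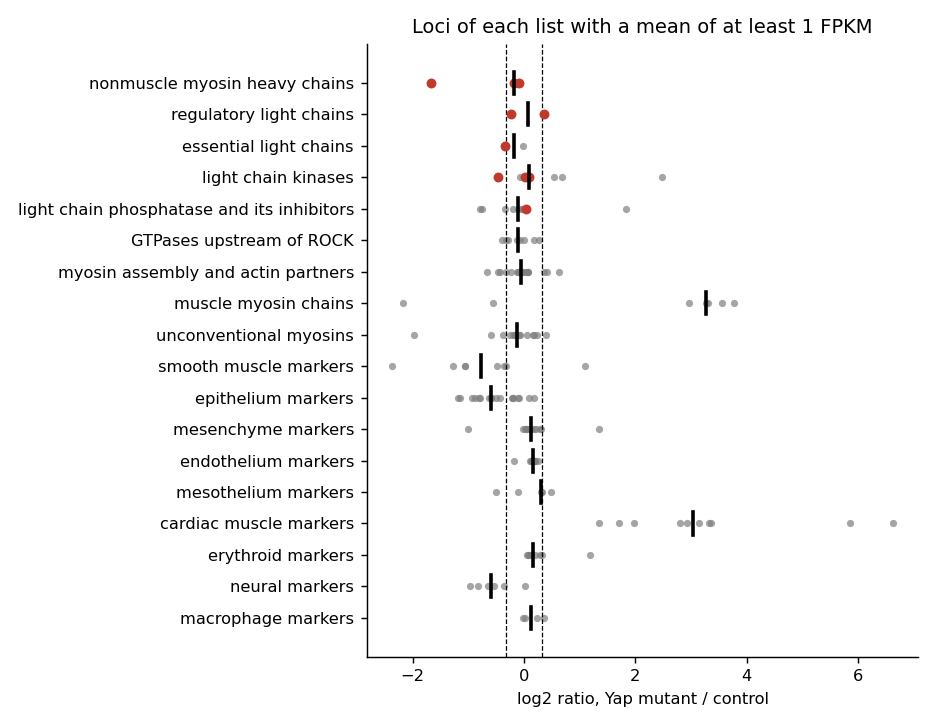
Log2 ratios of *Yap* mutant to control for every compared locus of each gene list, with members in red, other genes in grey, list medians as black bars and dashed lines at the bound of 0.32. Kinase and phosphatase lists centre near 0, with medians of 0.09 and -0.11, whereas smooth muscle and epithelium markers sit to the left and cardiac markers and most muscle myosin chains to the right.

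The wider set of regulators was taken from 4 lists of 50 genes other than the members, of which 43 were compared. Of these, 25 had the lower value in mutants and 18 in controls, beside 51.8% and 48.2% of all compared loci. The median log2 ratio of the 43 was -0.04. The 25 include *Rnd3*, which is higher in mutants in the second table. Past the bound downward were 8 (18.6%) and past it upward were 7 (16.3%), beside 6.92% and 9.92% of all compared loci. Their direction was mixed, and larger differences occurred at both ends.

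Of the 10 listed light chain kinases other than *Mylk*, *Rock1* and *Rock2*, 8 were compared. Of these, 0 were past the bound downward and 3 were past it upward, beside 6.92% and 9.92% of all compared loci. Those not compared, *Mylk2* and *Mylk4*, averaged under 1 FPKM. *Mylk2* had 0.00558 FPKM in controls and 0.00440 FPKM in mutants (log2 ratio -0.34). *Mylk4* had 0.134 and 0.0861 FPKM (log2 ratio -0.64). Levels this low give the direction of either ratio little weight. *Cdc42bpb*, encoding a kinase that phosphorylates the light chain downstream of CDC42, had 26.4 and 26.8 FPKM in controls and mutants. *Dapk3*, encoding a calcium-independent kinase of the same site, had 20.4 and 20.5 FPKM. Past 1.5-fold were *Dapk2*, with 1.24 and 1.99 FPKM, and *Mylk3*, the kinase of heart muscle, with 0.764 and 4.28 FPKM.

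On the phosphatase side, the catalytic subunit gene *Ppp1cb* had 115.8 FPKM in controls and 113.6 FPKM in mutants. The genes of its inhibitors were mixed. *Ppp1r14a*, encoding the smooth muscle inhibitor CPI-17, had 36.8 FPKM in controls and 21.8 FPKM in mutants (log2 ratio -0.75). *Ppp1r14c*, encoding a related inhibitor, had 5.21 FPKM in controls and 18.5 FPKM in mutants (log2 ratio 1.83). *Ppp1r14b*, the most abundant of this family here, had 208.8 and 193.1 FPKM. *Nuak1*, encoding a kinase that acts on the targeting subunit, had 9.07 FPKM in controls and 5.27 FPKM in mutants (log2 ratio -0.78). Of the 10 genes of this list that are not members, 8 were compared. Past the bound downward were 3 and upward 1, beside 6.92% and 9.92% of all compared loci. The genes of this list that were not compared averaged under 1 FPKM. These were *Nuak2*, encoding a relative of *Nuak1*, with 1.38 FPKM in controls and 0.384 FPKM in mutants (log2 ratio -1.84), and *Ppp1r14d*, with 0.216 and 0.623 FPKM (log2 ratio 1.53). The paper reports *Nuak2* as lower in mutants and as a YAP target, with YAP and TEAD found at its promoter. It states that the NUAK2 kinase can inhibit the light chain phosphatase.

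Upstream of ROCK, *Rhoa* had 231.1 FPKM in controls and 212.4 FPKM in mutants, and *Arhgdia* had 206.0 and 195.3 FPKM. Of the 8 loci compared, 2 were past the bound downward and 0 upward, beside 6.92% and 9.92% of all compared loci. None of the 8 reached 1.5-fold. *Rnd3*, encoding an inhibitor of ROCK1, had 35.8 FPKM in controls and 29.5 FPKM in mutants in the table of all loci, while the second table has the same 2 numbers under the opposite genotypes. Its direction is therefore uncertain.

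In the list of myosin assembly and actin partners, the cytoplasmic actins were the most abundant, with 1392 and 1361 FPKM for *Actg1* and 1200 and 1177 FPKM for *Actb*. The largest differences among the 19 loci compared were those of *Limch1*, encoding an activator of nonmuscle myosin II, with 9.04 FPKM in controls and 5.68 FPKM in mutants (log2 ratio -0.67), and of *Lurap1*, an adaptor of the kinase MRCK, with 1.93 FPKM in mutants (log2 ratio 0.62). In this list 3 loci were past the bound downward and 3 upward, beside 6.92% and 9.92% of all compared loci.

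The promoters of the members past the bound with regular values are printed to show where letters of a YAP partner motif fall, as the 250 bases before the start site in RefSeq (GRCm38.p6), 5′ to 3′ on the strand of the gene. Capitals mark a match to GGAATG, the core of the TEAD-binding sequence through which YAP acts, on either strand, or to the CArG box bound by SRF, a factor that drives actomyosin genes.
Mylk (chr16:34784700-34784949, plus strand): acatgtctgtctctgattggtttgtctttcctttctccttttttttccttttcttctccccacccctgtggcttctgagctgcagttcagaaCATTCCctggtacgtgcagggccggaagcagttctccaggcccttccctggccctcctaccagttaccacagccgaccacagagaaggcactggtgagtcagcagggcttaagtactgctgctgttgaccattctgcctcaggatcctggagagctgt
Myl9 (chr2:156775214-156775463, plus strand): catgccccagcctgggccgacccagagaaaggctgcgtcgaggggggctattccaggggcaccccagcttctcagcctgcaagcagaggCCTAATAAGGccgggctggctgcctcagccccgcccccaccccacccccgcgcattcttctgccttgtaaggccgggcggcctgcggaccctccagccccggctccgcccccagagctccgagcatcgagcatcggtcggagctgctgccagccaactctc
Myh14 (chr7:44670844-44671093, minus strand): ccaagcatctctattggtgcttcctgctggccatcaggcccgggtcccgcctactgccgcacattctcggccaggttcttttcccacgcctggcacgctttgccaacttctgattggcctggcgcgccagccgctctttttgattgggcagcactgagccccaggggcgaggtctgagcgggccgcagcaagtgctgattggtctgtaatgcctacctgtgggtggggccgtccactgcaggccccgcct
In windows from 250 bases before to 50 bases after the start, *Mylk* holds the TEAD core at -158, read as CATTCC on the strand shown, and no CArG box. The GENCODE model of *Mylk* begins further upstream, at 34745210. *Myl9* holds a CArG box at -161 and no TEAD core, and *Myh14* holds neither. Over 11 windows of 9 members and *Myl12a*, 3 hold the TEAD core, the others being *Myh10* at -7 and *Myl12a* at 27, and 2 hold a CArG box, the other being the second start of *Myl6* at -50. *Myl12b* held no TEAD core in its window, and *Rock1* was not searched. Of 32851 mouse promoter windows of the same length, 14.7% hold the TEAD core and 1.63% a CArG box. A match is a description of letters and not a bound site, and the 2 motifs do not overlap in any of these windows. The paper searched a longer stretch before the start. By chromatin immunoprecipitation it reported YAP enriched at the *Myl12b* promoter in lungs of a later stage. The forward primer that the paper lists for this promoter holds GGAATG, which the window searched here does not contain. A window without a match therefore does not show that a promoter lacks YAP.

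As checks of the samples, *Yap1* had 76.1 FPKM in controls and 65.6 FPKM in mutants (log2 ratio -0.21), a value that includes the mesenchyme. That ratio lay within the bound and does not by itself show the deletion. Epithelial markers were present, led by *Cldn6* (98.0 and 64.7 FPKM), *Spint2* (82.2 and 77.6 FPKM) and *Epcam* (74.9 and 55.6 FPKM). Of the 19 markers 17 were lower, and their sum was 577.0 FPKM in controls and 427.8 FPKM in mutants. The medians of the mesenchyme, endothelium, mesothelium, erythroid and macrophage markers lay between 0.12 and 0.31, and that of the neural markers was -0.59. Of the 12 mesenchyme markers, 1 was at least 1.5-fold lower in mutants and 1 at least 1.5-fold higher. The Y-linked genes *Ddx3y* and *Eif2s3y* had at most 0.0163 FPKM in controls and at least 10.2 FPKM in mutants, and *Xist* had 97.0 and 50.4 FPKM, so the sexes of the embryos were not balanced between the groups. The part of sex in the member values was not tested.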

How the data were processed

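Whole-lung RNA from 3 control and 3 *Yap* mutant samples at 12.5 *dpc* was sequenced by the authors as strand-specific paired-end libraries. The submitters' processing notes name TopHat, Cuffdiff and mm10, and the paper names the Maverix platform. The sources used here give neither versions nor the gene annotation. The authors deposited 2 tables, one of 24402 loci and one of 2395 loci, each with 1 FPKM value per genotype. The headers do not name a unit, and FPKM was taken from the Cuffdiff layout of the deposited tables. The log2 fold changes and p-values in the deposited tables are the authors' own comparison and were not used. The depth of single libraries is unknown, so precision is unknown, nothing was tested, and no design with replicates could be fitted.

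Log2 ratios of *Yap* mutant to control were computed from the group values without a pseudocount, over loci that averaged 1 FPKM or more and had neither value at 0. The 15 loci with such an average and a value at 0 have no ratio. Members and gene lists were chosen with earlier results of these data known. Genes named beside the members were those of the myosin and regulator lists past 1.5-fold, or with the 2 highest means in their list, and the 2 or 3 most abundant markers. A few were left unnamed where no result turned on them or are not reported here, and the loci named for irregular values, *Des*, *Mylpf*, *Rnd3* and the kinase and phosphatase genes named under 1 FPKM were picked with their values in view. A locus counts as near a member's level within 1.5-fold of its mean. Locus starts count from 0, so 1 was added. Of 21198 loci with a single symbol in GENCODE release M21, 20924 (98.7%) overlapped that gene. The ratio and count functions were tested on simulated data. Python 3.11.15, numpy 2.4.6 and matplotlib 3.10.9 were used. The alternatives tried were pseudocounts, other minimum levels, other scalings, a fold of 1.5, the values of the second table and, added after the data were seen, leaving out *Myl6*.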

Additional observations from a re-analysis of the deposited data

How the results depend on the processing

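No paired analysis was possible because the tables hold 1 value per genotype and no value per library, and for the same reason no replicate could be left out. All 10 member loci kept the sign of their log2 ratio under every alternative, but none of these could have changed it. A pseudocount added to both values leaves the sign as it is, and no member has another value in the second table. The scalings raise each ratio by 0.006 and 0.04, and the negative ratio closest to 0, that of *Myh10*, is -0.09. Of the 50 member ratios recomputed with both pseudocounts, both scalings and the second table, 2 moved by more than 0.1, both of *Myh14* under a pseudocount. The members' median lay between -0.13 and -0.09 under every alternative. With a fold of 1.5, 1 member was lower and 0 were higher, because the bound is wider. Rescaling both columns to the same total, which shifts every log2 ratio by 0.04, left 2 members lower by at least the bound of 0.32, without *Myl6*. A mean of at least 5 FPKM also left 2, without *Myh14*. Over the whole table, 879 loci were lower by at least the bound and 1260 higher. With a mean of at least 5 FPKM these were 423 and 517, and with no filter on the mean 2424 and 3444. Of 53 list medians recomputed, 3 moved by more than 0.1. With the second table's values, the median of the muscle myosin chains was 1.31 in place of 3.27.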

Other observations

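Unconventional myosins, actin motors of which many carry cargo, were compared at 14 loci. In mutants 9 were lower and 5 higher, with a median log2 ratio of -0.12. Over all compared loci, 51.8% were lower and 48.2% higher. *Myo5c*, a motor of epithelial secretory traffic, had 6.31 FPKM in controls and 1.59 FPKM in mutants (log2 ratio -1.99). *Myo5b*, which carries recycling endosomes, had 1.57 and 1.04 FPKM (log2 ratio -0.59).

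The deposited tables give different numbers for some of the same loci, and several of these encode muscle myosin chains or proteins of the actin cytoskeleton. Of 2395 loci in the second table, 12 have values that differ by more than 1% from those of the same locus and gene name in the table of all loci, and 13 differ together with the gene name. For 10 of the 12, the mutant value alone differs, and most of the differences are round. The mutant value in the table of all loci is 4 times that in the second table for *Myl1* and *Myl4*, and 2 times for *Igf1*, *Pfn2* and *Ptk2b*. On the log2 scale it exceeds the other by 1.8 for *Myl7*, by 0.50 for *Mylpf*, by 0.30 for *Pip5k1b* and by 0.20 for *Rhpn1*. For *Arhgap8* it is 0.703 times the other. For *Mylk2* both values differ by a factor of 10, at 0.00558 and 0.0558 FPKM in controls, and for *Rnd3* the genotypes are exchanged. In the smaller table, 12 loci have a mutant value with more than 6 significant digits, and in the table of all loci 6 do, *Myl6* among both. None of the 10 member loci has different values in the 2 tables. Why the tables differ was not tested.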
